A study of Stenocereus queretaroensis with 6 samples.

Results

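The genes described here encode the shikimate pathway and the routes that leave its product chorismate, above all those to phenylalanine and tryptophan, in the columnar cactus *Stenocereus queretaroensis*, grown as suspension cells. They are the assembled transcript clusters whose best Swiss-Prot hit has a description that names an enzyme of these routes, such as DAHP synthase (phospho-2-dehydro-3-deoxyheptonate aldolase), a chorismate enzyme or tryptophan synthase. The choice used names and no measured value, and it took 226 of 170970 clusters, of which 76970 have any Swiss-Prot hit. RNA was sequenced in 6 libraries, 3 from cells on MS medium (a mix of mineral salts widely used to grow plant tissue) with 3% sucrose and 3 from cells on MS medium with 8% sucrose. The sample titles carry the letter Y at 3% sucrose and R at 8% sucrose, which the labels do not explain, and the labels name no line, culture age or time on the medium. It is not stated whether replicate libraries came from separate cultures, so a p-value measures the spread among libraries only, and that spread may be technical. RNA came from whole cultures, in which fewer cells of a type and less RNA per cell cannot be told apart. The label of suspension cells has no defining marker gene against which to check it.

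The shikimate pathway runs in plant plastids from phosphoenolpyruvate and erythrose 4-phosphate to chorismate and is absent from animals. Chorismate mutase sends chorismate to prephenate and on through arogenate to phenylalanine and tyrosine, while anthranilate synthase commits it to tryptophan. In cacti and their relatives, tyrosine feeds the betalain pigments and phenylalanine feeds phenylpropanoids such as lignin and flavonoids. In *Arabidopsis*, chorismate mutase 1 is a plastid enzyme that responds to aromatic amino acids, and chorismate mutase 2 is a cytosolic enzyme that does not.

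The libraries held 36357450 to 41147265 expected counts at 3% sucrose and 35476032 to 36919130 at 8% sucrose. The leading principal component of all clusters, with 76.3% of the variance, separated the media, and the next, with 6.92%, set replicate 1 at 3% sucrose apart from the other libraries. Reads on 3 clusters that resemble ribosomal RNA made up 1.28% to 1.45% of a library on 3% sucrose and 0.456% to 1.00% of a library on 8% sucrose, and their part in the results below was not tested. Levels are given in CPM, for which counts were divided by the kept counts of the library times its TMM factor. The factors were 0.935 to 0.965 at 3% sucrose and 1.039 to 1.074 at 8% sucrose. CPM totals were therefore not equal but higher at 3% sucrose, and a gap in summed CPM between the media includes this scaling. A sum over clusters is a description with no test. Tests are edgeR quasi-likelihood tests fitted on the whole table with Benjamini-Hochberg adjustment, and a gene is called when the adjusted p is under 0.05. Fold changes are 8% over 3% sucrose on the log2 scale with their SE.

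All 226 chosen clusters together took 3339, 3422 and 3269 CPM at 3% sucrose and 2215, 2222 and 2154 CPM at 8% sucrose. The media did not overlap, and the level at 8% sucrose was 0.657 of that at 3% sucrose. Without chorismate mutase 2, which went the other way, the sum was 3155 ± 73.9 CPM on the 3% medium and 1641 ± 20.9 CPM on the 8% medium (means ± SD, n = 3), a ratio of 0.52. The 167 clusters of the 18 pathway enzymes with plant hits took 3036, 3110 and 2982 CPM at 3% sucrose and 2009, 2010 and 1938 CPM at 8% sucrose. Each of these 18 enzymes was then summed over its clusters. For 15 enzymes all libraries at 3% sucrose lay above all at 8% sucrose in CPM. These include all 6 enzymes of the shikimate pathway and all 6 of the tryptophan branch, though anthranilate synthase alpha overlapped in the deposited FPKM. Chorismate mutase 2 and aminodeoxychorismate synthase were higher at 8% sucrose in every library, and arogenate dehydratase overlapped. Separation in either direction was common, since 82.5% of all tested Swiss-Prot hits did not overlap between the media, and 49.0% were called as falling. For 31.0% of all tested clusters all libraries at 3% sucrose lay above all at 8% sucrose. The share with this direction was not counted for hits or for sums like these.

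**Figure D1:**
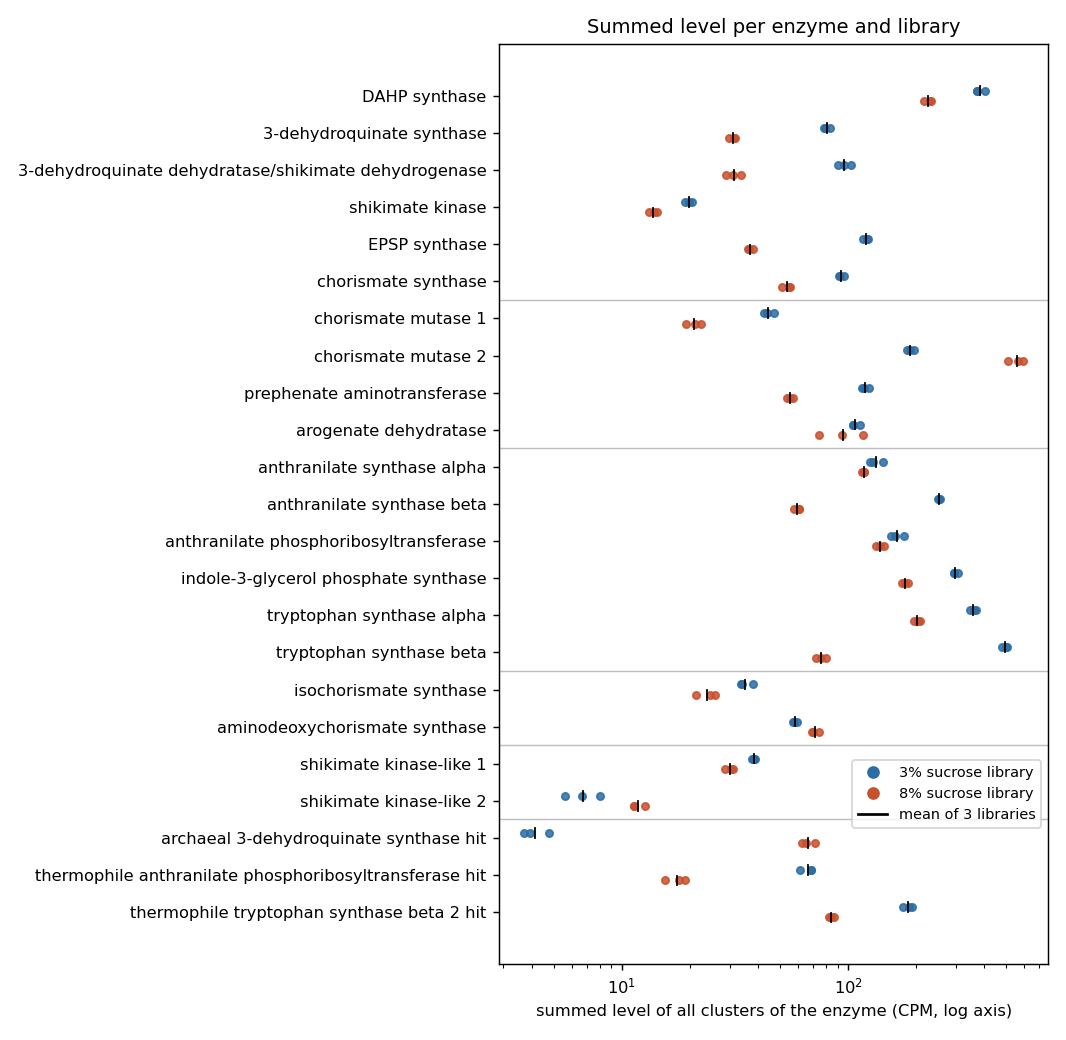
Summed CPM of each enzyme on a log axis, 1 point per library (blue 3% sucrose, red 8% sucrose) and a black tick for the mean of 3 libraries. Horizontal lines separate the shikimate pathway, the phenylalanine branch, the tryptophan branch, other chorismate users, shikimate kinase-like hits and hits named for archaeal or thermophile proteins. Chorismate mutase 2 stands at 511 to 596 CPM in the red points against 181 to 196 CPM in the blue, while tryptophan synthase beta stands at 72.2 to 79.6 CPM against 481 to 504 CPM.

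Counted as clusters called by the test used here, the chosen set lay close to the rest of the transcriptome. Of the 226 clusters 8 had no counts, 55 had too few counts to test and 163 were tested. Of these 46 rose at 8% sucrose, or 28.2%, where 29.1% of all tested clusters rose, and 47 fell, or 28.8%, where 25.6% of all tested clusters fell. Together these are 57.1% of the members tested, where 54.6% of all tested clusters were called. All libraries at 8% sucrose lay above all at 3% sucrose for 52 members, where 36.6% of all tested clusters showed this, and the reverse held for 52, where 31.0% did. The media thus did not overlap for 104 members, or 63.8%, where 67.6% of all tested clusters did not overlap. The median log2 fold change was 0.02 over the tested members and 0.19 over all 85038 tested clusters. Of 218 members with a value in the authors' deposited table, it calls 47 higher, or 21.6%, where it calls 15.7% of 161056 clusters higher, and 46 lower, or 21.1%, where it calls 14.7% lower. Among members called here, the authors' deposited table gives the same direction for 84, no call for 9 and the opposite direction for 0.

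The clusters that fell carried more counts than those that rose. Their median was 1077 counts per library against 86.1 counts for the clusters that rose, where all called clusters of the table have medians of 184 and 63.5 counts. Several clusters share a protein hit, so reads of a gene, its alleles or near-identical copies can be divided between them. Of 20 hits with at least 2 called members, 13 had members that rose and members that fell, or 65.0%, where 48.2% of 6453 such hits in the whole table did. Counts were therefore also summed over all clusters of a hit and tested again, which gave 41 tested hits out of 61. Of these 23 fell, or 56.1%, where 49.0% of all 13183 tested Swiss-Prot hits fell, and 10 rose, or 24.4%, where 29.3% of all tested hits rose. The media did not overlap for 35 of the 41 hits, where 82.5% of all tested hits did not overlap. The median log2 fold change was -0.44 over these hits and -0.30 over all tested hits. By branch, 7 of 11 hits of the shikimate pathway fell and 1 rose, 3 of 7 hits of the phenylalanine branch fell and 1 rose, and 8 of 11 hits of the tryptophan branch fell and 1 rose.

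**Figure D2:**
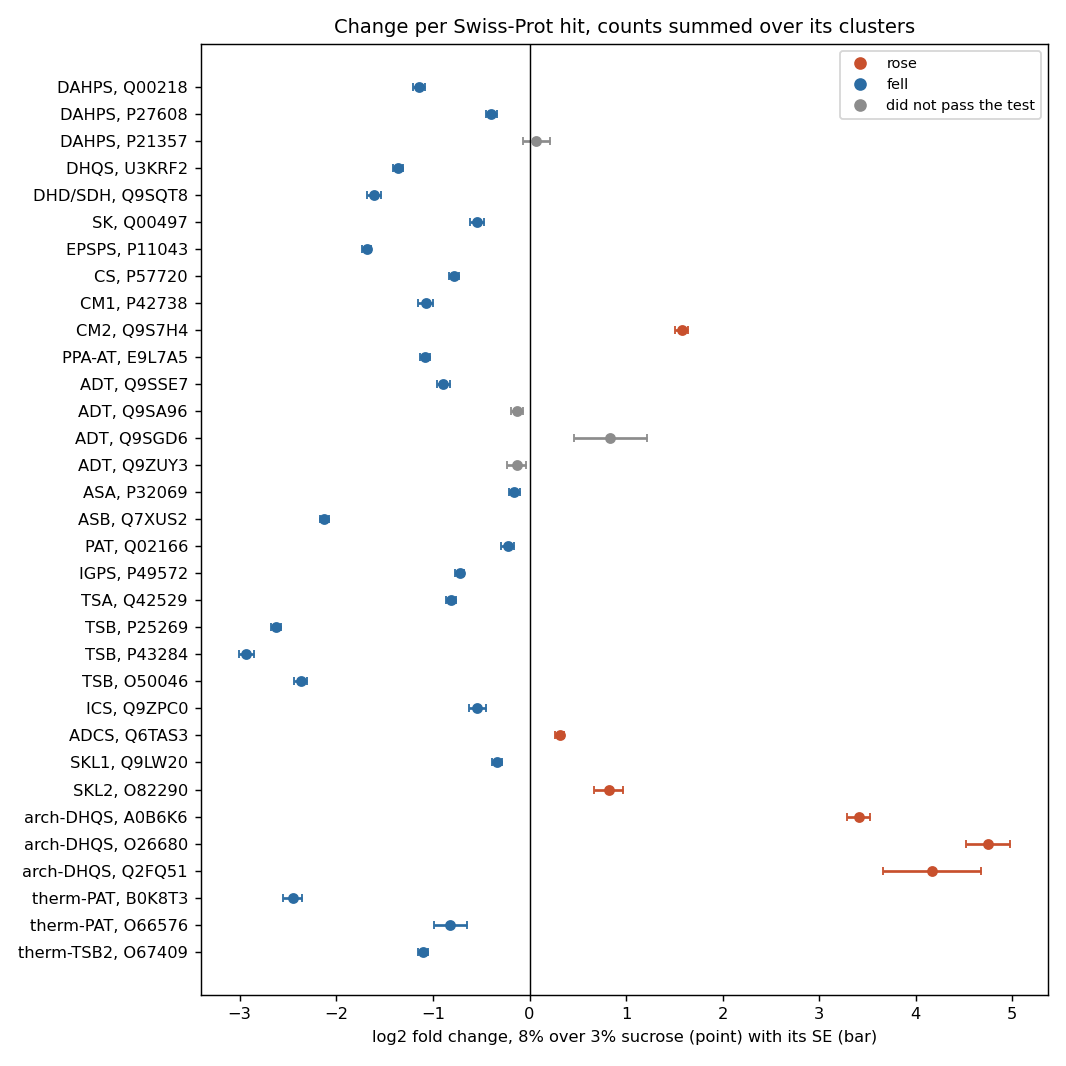
Log2 fold change (8% over 3% sucrose) of every pathway hit with at least 100 counts per library, with its SE as a bar, ordered along the pathway and coloured by the call. The 3 tryptophan synthase beta hits lie between -2.93 and -2.37, chorismate mutase 2 at 1.58 and the 3 archaeal-named hits between 3.41 and 4.75.

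DAHP synthase joins phosphoenolpyruvate and erythrose 4-phosphate at the entry of the shikimate pathway. Its 9 clusters summed to 372, 402 and 372 CPM at 3% sucrose and to 216, 232 and 229 CPM at 8% sucrose. All libraries at 3% sucrose were higher. The hit of DAHP synthase 2 (Q00218), with 212 ± 7.99 CPM on the 3% medium and 96.1 ± 5.715 CPM on the 8% medium (means ± SD, n = 3), fell by 1.14 ± 0.06 (SE) on the log2 scale with an edgeR adjusted p of 1.56e-06. The main hit of DAHP synthase 1 (P27608) fell by 0.39 ± 0.05 with an edgeR adjusted p of 0.000429. A further DAHP synthase 1 hit (P21357) stood at 8.83 to 9.79 CPM at 3% sucrose and 7.88 to 10.9 CPM at 8% sucrose and was not called. A rice-named DAHP synthase 1 hit (Q75LR2) was the 1 hit of the shikimate pathway that rose, at a level of 0.177 ± 0.175 CPM and 1.03 ± 0.115 CPM (means ± SD, n = 3). Its edgeR adjusted p was 0.0273 in the test by hit, and its single cluster was not called in the test by cluster. The most abundant cluster, Cluster-2051.81894, fell by 0.57, and Cluster-2051.79190 of DAHP synthase 2 fell by 2.05, from 101, 113 and 109 CPM to 22.4, 31.4 and 24.3 CPM. The other abundant DAHP synthase 2 cluster, Cluster-2051.81024 (106, 111 and 103 CPM against 66.5, 68.5 and 74.1 CPM), fell by 0.61.

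The middle of the pathway was lower at 8% sucrose in every enzyme. 3-Dehydroquinate synthase, which closes the carbon ring, stood at 79.3, 83.5 and 78.1 CPM at 3% sucrose and at 29.9, 31.4 and 31.5 CPM at 8% sucrose. The spread within a medium was small beside this gap, and the hit (U3KRF2) fell by 1.36 ± 0.05 (SE) with an edgeR adjusted p of 3.27e-07. Most of its counts lie on Cluster-2051.28900, which fell by 1.48. The bifunctional 3-dehydroquinate dehydratase/shikimate dehydrogenase, which makes shikimate, stood at 96.0, 103 and 89.9 CPM at 3% sucrose and at 29.0, 30.9 and 33.6 CPM at 8% sucrose. Its hit (Q9SQT8) fell by 1.61 ± 0.07 (SE) with an edgeR adjusted p of 8.54e-07. Among its 11 clusters Cluster-2051.76833 fell by 1.99 and Cluster-2051.80535 by 4.29. Cluster-2051.54986 went against its hit, from 0 counts in all libraries at 3% sucrose to 3.52, 2.79 and 3.49 CPM at 8% sucrose, at least 39.4-fold higher against 3 counts per library.

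Shikimate kinase, which phosphorylates shikimate, stood at 19.0, 19.8 and 20.4 CPM at 3% sucrose and at 14.2, 13.9 and 13.1 CPM at 8% sucrose. Its main hit (Q00497) fell by 0.54 ± 0.08 (SE) with an edgeR adjusted p of 0.000461. EPSP synthase, the target of the herbicide glyphosate, was a single cluster, Cluster-2051.62272, at 116, 123 and 121 CPM at 3% sucrose and at 36.0, 37.9 and 36.5 CPM at 8% sucrose. It is the only cluster of its hit (P11043), and the hit fell by 1.69 ± 0.05 (SE) with an edgeR adjusted p of 9.23e-08. Whether reads of the gene also lie on clusters with another hit or none was not tested. Chorismate synthase, the last enzyme, stood at 91.7, 95.7 and 91.5 CPM at 3% sucrose and at 51.3, 55.2 and 54.9 CPM at 8% sucrose. Its hit (P57720), on Cluster-2051.33845, fell by 0.78 ± 0.05 (SE) with an edgeR adjusted p of 6.04e-06. The fall within the pathway thus ranged from 0.39 for DAHP synthase 1 to 1.69 for EPSP synthase among hits with at least 100 counts per library that were called.

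In the phenylalanine branch the 2 kinds of chorismate mutase moved in opposite directions. Chorismate mutase 2 stood at 196, 188 and 181 CPM at 3% sucrose and at 596, 561 and 511 CPM at 8% sucrose. Every library at 8% sucrose lay far above every library at 3% sucrose, and the hit (Q9S7H4) rose by 1.58 ± 0.07 (SE) with an edgeR adjusted p of 5.57e-07. Chorismate mutase 1 stood at 47.0, 43.7 and 42.6 CPM at 3% sucrose and at 22.4, 21.0 and 19.2 CPM at 8% sucrose. Its hit (P42738) fell by 1.07 ± 0.08 (SE) with an edgeR adjusted p of 1.02e-05.

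Of the 14 clusters of chorismate mutase 2, 12 were tested, 10 rose and 0 fell, though low clusters could pass the filter only through their counts at 8% sucrose. Of all tested clusters 29.1% rose and 25.6% fell. The most abundant, Cluster-2051.78650, stood at 176, 176 and 168 CPM at 3% sucrose and at 357, 358 and 344 CPM at 8% sucrose, and rose by 1.02 ± 0.04 (SE) with an edgeR adjusted p of 5.72e-06. It held 92.1% of the enzyme's counts at 3% sucrose and 63.4% at 8% sucrose. The other 13 clusters together stood at 20.7, 11.5 and 13.1 CPM at 3% sucrose and at 239, 204 and 167 CPM at 8% sucrose, a ratio of 13.5. Among these, Cluster-2051.86569 rose by 4.76 and Cluster-2051.87123 by 6.63, both from under 0.4 CPM in each library at 3% sucrose. Cluster-2051.97160 and Cluster-2051.86568 did not pass the test. The clusters of chorismate mutase 1 were not uniform either. Cluster-2051.46695, with 46.4, 43.5 and 42.2 CPM at 3% sucrose and 18.0, 17.6 and 16.8 CPM at 8% sucrose, fell by 1.33, while the low Cluster-2051.54169 rose by 4.12, from 0.156 ± 0.224 CPM to 2.71 ± 0.966 CPM (means ± SD, n = 3).

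**Figure D3:**
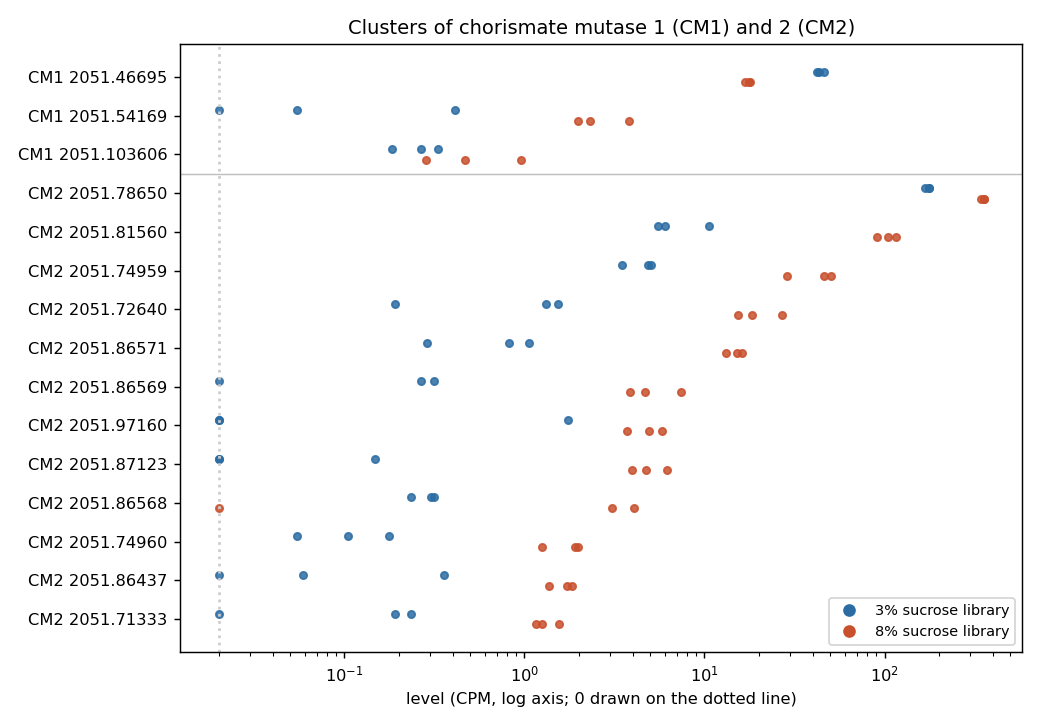
CPM of every tested cluster of chorismate mutase 1 (CM1) and chorismate mutase 2 (CM2) on a log axis, 1 point per library, blue at 3% and red at 8% sucrose, with libraries at 0 drawn on the dotted line. The most abundant CM1 cluster has its red points left of the blue, and every CM2 cluster but Cluster-2051.86568, which has a library at 0 at 8% sucrose, has all red points right of the blue.

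After chorismate mutase, prephenate aminotransferase turns prephenate into arogenate. It stood at 118, 124 and 115 CPM at 3% sucrose and at 56.8, 53.8 and 55.6 CPM at 8% sucrose. Its hit (E9L7A5), an enzyme that also acts on aspartate, fell by 1.08 ± 0.05 (SE) with an edgeR adjusted p of 9.02e-07, and Cluster-2051.91717 holds nearly all of its counts. Chorismate mutase 2 was the 1 enzyme of the branch that was higher at 8% sucrose in every library. Without it the branch summed to 269, 280.4 and 263 CPM at 3% sucrose and to 195, 169 and 149 CPM at 8% sucrose.

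Arogenate dehydratase, which makes phenylalanine from arogenate, overlapped between the media, at 105, 113 and 105 CPM at 3% sucrose and at 116, 94.0 and 74.0 CPM at 8% sucrose. By isoform, the hit of arogenate dehydratase 2 (Q9SSE7), with 47.4 ± 2.41 CPM and 25.5 ± 1.48 CPM (means ± SD, n = 3), fell by 0.89 ± 0.07 (SE) with an edgeR adjusted p of 1.38e-05. Its clusters Cluster-2051.101806 and Cluster-2051.101801 fell by 0.88 and 2.96. The hit of isoform 1 (Q9SA96) had a log2 fold change of -0.13 ± 0.06 with an edgeR adjusted p of 0.109, and that of isoform 3 (Q9ZUY3) one of -0.13 ± 0.10 with an edgeR adjusted p of 0.267. Isoform 6 (Q9SGD6) stood at 17.9, 18.7 and 16.6 CPM at 3% sucrose and at 49.9, 30.65 and 14.3 CPM at 8% sucrose. Replicate 1 at 8% sucrose was high and replicate 3 was below all libraries at 3% sucrose, so the media overlapped. The log2 fold change of this hit was 0.83 ± 0.38 with an edgeR adjusted p of 0.0846. It was 1.15 without replicate 3 at 8% sucrose (edgeR adjusted p of 0.00251) and 0.31 without replicate 1 at 8% sucrose (edgeR adjusted p of 0.386). Its minor Cluster-2051.77417 went from 0 counts at 3% sucrose to 1.92, 1.01 and 0.905 CPM, at least 15.4-fold higher against 3 counts per library. Without isoform 6 the enzyme stood at 86.7 to 93.9 CPM at 3% sucrose and at 59.7 to 66.3 CPM at 8% sucrose, with no overlap.

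In the tryptophan branch the enzymes that fell most were the small subunit of its entry enzyme and the beta subunit of its last enzyme. Anthranilate synthase beta, the subunit that supplies ammonia from glutamine, stood at 254, 253 and 249.5 CPM at 3% sucrose and at 57.6, 60.6 and 60.9 CPM at 8% sucrose, 4.22 times as high at 3% sucrose. Its main hit (Q7XUS2), on the single Cluster-2051.44724, fell by 2.12 ± 0.05 (SE) with an edgeR adjusted p of 3.72e-08. Another beta subunit hit, named for *Arabidopsis* (Q42565), rose by 1.35 ± 0.29 (SE) with an edgeR adjusted p of 0.00421, at a low level of 0.714 ± 0.139 CPM and 1.83 ± 0.255 CPM (means ± SD, n = 3).

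The catalytic alpha subunit, which binds chorismate, stood at 129, 143 and 125 CPM at 3% sucrose and at 116, 117.5 and 118 CPM at 8% sucrose. The media were apart by less than the range of the libraries at 3% sucrose. In deposited FPKM the media overlapped, at 68.0, 72.1 and 64.8 FPKM at 3% sucrose and at 69.0, 65.25 and 67.1 FPKM at 8% sucrose. Its hit (P32069) fell by 0.16 ± 0.06 (SE) with an edgeR adjusted p of 0.0378, a call that was lost without replicate 2 at 8% sucrose (edgeR adjusted p of 0.0831) and without a filter on low counts (edgeR adjusted p of 0.0514). Cluster-2051.98445 of this hit rose by 2.99, from 1.00, 1.04 and 0.685 CPM to 7.25, 8.34 and 6.23 CPM, against the direction of the hit.

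Anthranilate phosphoribosyltransferase, the next enzyme, stood at 161, 155 and 176 CPM at 3% sucrose and at 139, 132 and 144 CPM at 8% sucrose. Its hit (Q02166) fell by 0.23 ± 0.06 (SE) with an edgeR adjusted p of 0.0138, and without replicate 2 at 8% sucrose the edgeR adjusted p was 0.0523. Its most abundant cluster, Cluster-2051.74776, fell by 0.19 with an edgeR adjusted p of 0.0309, a call lost without any 1 of the libraries at 8% sucrose (edgeR adjusted p from 0.0588 to 0.0827). Cluster-2051.74781 rose by 0.72 with an edgeR adjusted p of 0.0200, a call lost without 4 of the 6 libraries taken out in turn (replicates 1 and 2 at 3% sucrose, replicates 1 and 3 at 8% sucrose; edgeR adjusted p from 0.0535 to 0.0744).

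Indole-3-glycerol phosphate synthase, which closes the indole ring, stood at 295, 305.5 and 294 CPM at 3% sucrose and at 172, 184 and 179 CPM at 8% sucrose. Its hit (P49572) fell by 0.72 ± 0.04 (SE) with an edgeR adjusted p of 4.34e-06. The most abundant cluster, Cluster-2051.64212, fell by 1.24, from 248, 258 and 249.6 CPM to 101, 111 and 107 CPM. Cluster-2051.83178 rose by 0.54, from 38.1, 39.5 and 37.3 CPM to 54.1, 57.0 and 56.1 CPM, so abundant clusters of this hit went in opposite directions.

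Tryptophan synthase alpha, which releases indole, stood at 368, 360.1 and 344.5 CPM at 3% sucrose and at 195, 208 and 203 CPM at 8% sucrose. Its main hit (Q42529) fell by 0.81 ± 0.05 (SE) with an edgeR adjusted p of 3.06e-06, with Cluster-2051.80463 at -0.54 and the lower Cluster-2051.80461 at 2.83. The beta subunit, which joins indole to serine, stood at 499, 504.5 and 481 CPM at 3% sucrose and at 72.2, 76.0 and 79.6 CPM at 8% sucrose, 6.51 times as high at 3% sucrose. All 3 of its abundant hits fell. The hit on Cluster-2051.91089 (P25269) stood at 233 ± 7.05 CPM and 37.7 ± 1.67 CPM (means ± SD, n = 3) and fell by 2.63 ± 0.06 (SE) with an edgeR adjusted p of 3.02e-08. The hit on Cluster-2051.105747 (P43284) stood at 182 ± 3.94 CPM and 23.8 ± 2.22 CPM (means ± SD, n = 3) and fell by 2.93 ± 0.08 (SE) with an edgeR adjusted p of 5.42e-08. The third hit (O50046) fell by 2.37 ± 0.07 (SE) with an edgeR adjusted p of 9.12e-08. No tested cluster with a plant tryptophan synthase beta hit rose, where 29.1% of all tested clusters rose. Of these 6 clusters 4 fell, where 25.6% of all tested clusters fell.

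Other enzymes that draw on chorismate had log2 fold changes by hit of -0.54 and 0.31. Isochorismate synthase, which leads to salicylate and phylloquinone, stood at 33.6, 34.1 and 37.9 CPM at 3% sucrose and at 21.4, 24.4 and 25.8 CPM at 8% sucrose, and its hit (Q9ZPC0) fell by 0.54 ± 0.09 (SE) with an edgeR adjusted p of 0.000895. Its most abundant cluster, Cluster-2051.86466, did not pass the test, with a log2 fold change of -0.12. Cluster-2051.107248 went from 1.65, 3.79 and 3.95 CPM to 0 counts in all libraries at 8% sucrose, at least 39.5-fold lower against 3 counts per library, and Cluster-2051.42473 from 0 counts to 0.492, 0.738 and 1.53 CPM, at least 11.1-fold higher. Aminodeoxychorismate synthase, which leads to folate, stood at 57.3, 59.7 and 57.8 CPM at 3% sucrose and at 69.6, 74.7 and 70.0 CPM at 8% sucrose. Its hit (Q6TAS3) rose by 0.31 ± 0.05 (SE) with an edgeR adjusted p of 0.000991. Of its 10 tested clusters 2 rose, where 29.1% of all tested clusters rose. Among the 2 was Cluster-2051.100285, which rose by 1.34. The most abundant, Cluster-2051.62972, had a log2 fold change of 0.09 and did not pass the test.

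Shikimate kinase-like proteins share the fold of the kinase but are listed as probably inactive. Shikimate kinase-like 1 (Q9LW20), with 38.0 ± 0.489 CPM and 30.1 ± 1.13 CPM (means ± SD, n = 3), fell by 0.34 ± 0.06 (SE) with an edgeR adjusted p of 0.00103, and its Cluster-2051.25888 fell by 0.77. Shikimate kinase-like 2 (O82290), at 5.52, 7.92 and 6.65 CPM and at 11.4, 11.4 and 12.7 CPM, rose by 0.82 ± 0.15 (SE) with an edgeR adjusted p of 0.00159. Its Cluster-2051.32369 had 0 counts at 3% sucrose and 7.27, 6.45 and 6.96 CPM at 8% sucrose, at least 83.1-fold higher against 3 counts per library. This cluster held 58.5% of the hit's counts at 8% sucrose. Of the 7 tested clusters of the hit 2 rose and 3 fell, where 29.1% of all tested clusters rose and 25.6% fell.

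The names do not hold equally well for all members. Of the 226 members 182 have a plant protein as their hit, 24 a protein of an archaeon or thermophilic bacterium and 20 a protein of an enteric bacterium. The enteric hits had 29 to 50 counts in a library in all, at most 9 for a cluster in a library, and none was tested. The archaeal and thermophile hits took 7.35% to 7.95% of the members' counts. All 13 clusters with an archaeal 3-dehydroquinate synthase hit have an uncharacterized or hypothetical plant protein as their NR hit, 11 of these in sugar beet (*Beta vulgaris*), and 0 of 13 have a KEGG orthology term, while 11 carry the Pfam family of that synthase. They are called here by their hit, and their role in the cactus is not given by the annotation.

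The archaeal-named clusters had the largest ratio of the enzyme groups summed here. They stood at 3.71, 3.92 and 4.77 CPM at 3% sucrose and at 62.8, 65.3 and 71.3 CPM at 8% sucrose, a ratio of 16.1. Of the 13 clusters 10 passed the filter on low counts and rose, where 29.1% of all tested clusters rose. Clusters at or near 0 at 3% sucrose could pass it only through their counts at 8% sucrose, so this count is a description. Cluster-2051.73268 rose by 5.05, from 0.529, 0.627 and 1.12 CPM to 23.6, 24.3 and 28.0 CPM, and Cluster-2051.73269 by 3.74, from 1.21, 1.65 and 1.84 CPM to 17.7, 21.4 and 23.6 CPM. Summed by hit, the named hits rose by 3.41 ± 0.12 (A0B6K6), 4.75 ± 0.23 (O26680) and 4.17 ± 0.51 (Q2FQ51). The plant 3-dehydroquinate synthase hit described above moved the other way.

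The anthranilate phosphoribosyltransferase hits of thermophiles, whose 7 clusters have no KEGG orthology term and uncharacterized sugar beet proteins as NR hits, stood at 68.9, 68.2 and 61.4 CPM at 3% sucrose and at 19.1, 17.9 and 15.5 CPM at 8% sucrose. Of the 7 tested clusters 2 fell, where 25.6% of all tested clusters fell. These were Cluster-2051.31405, by 2.47, and Cluster-2051.31404, by 4.20. The other 5 were not called, with log2 fold changes from -1.16 to 0.53. The thermophile tryptophan synthase beta 2 hit (O67409) stood at 184, 189 and 173 CPM at 3% sucrose and at 82.9, 86.9 and 84.5 CPM at 8% sucrose, and fell by 1.10 ± 0.05 (SE) with an edgeR adjusted p of 9.03e-07.

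The order of the enzymes was read from the deposited FPKM, which divide counts by length, summed over the clusters of each enzyme. At 3% sucrose tryptophan synthase alpha (396 FPKM) and beta (369 FPKM) led, followed by anthranilate synthase beta (212 FPKM) and indole-3-glycerol phosphate synthase (206 FPKM), whose ranges overlapped. DAHP synthase had 182 FPKM, anthranilate phosphoribosyltransferase 125 FPKM and chorismate mutase 2 104 FPKM. Anthranilate synthase alpha, arogenate dehydratase, EPSP synthase, the dehydratase/dehydrogenase and chorismate synthase lay between 68.3 and 58.1 FPKM, each overlapping its neighbour in this order. At 8% sucrose chorismate mutase 2 came top with 348 FPKM, from rank 7, and tryptophan synthase beta moved from rank 2 to rank 8 with 65.2 FPKM. Anthranilate synthase beta moved from rank 3 to rank 9 with 55.4 FPKM. Isochorismate synthase and shikimate kinase were lowest in both media. The value of tryptophan synthase alpha includes 2 clusters shorter than 500 bp, of which Cluster-2051.80452 (442 bp) had 205, 208 and 202 FPKM at 3% sucrose and Cluster-2051.82970 (326 bp) 12.6, 12.8 and 6.87 FPKM. Over clusters of at least 500 bp the enzyme had 181 FPKM at 3% sucrose and 111 FPKM at 8% sucrose.

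**Figure D4:**
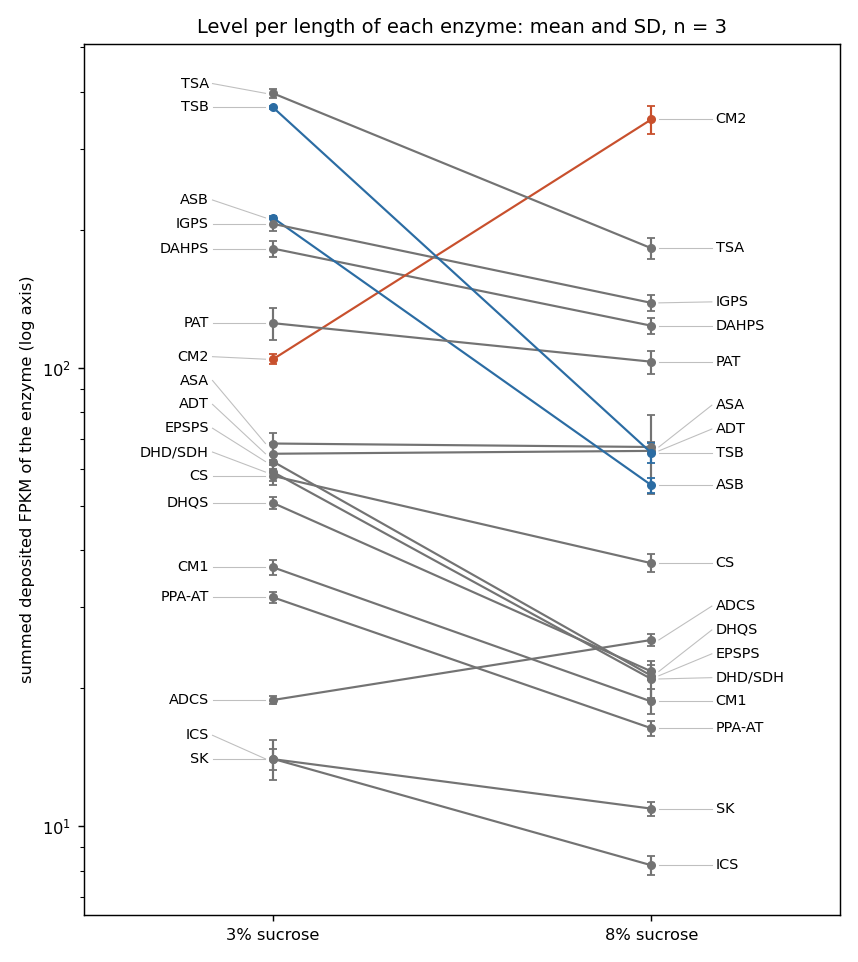
Summed deposited FPKM of the 18 enzymes with plant hits in each medium on a log axis, mean with SD (n = 3), with a line joining the media and thin grey lines leading to short names: DAHPS, DAHP synthase; DHQS, 3-dehydroquinate synthase; DHD/SDH, dehydratase/dehydrogenase; SK, shikimate kinase; EPSPS, EPSP synthase; CS, chorismate synthase; CM, chorismate mutase; PPA-AT, prephenate aminotransferase; ADT, arogenate dehydratase; ASA and ASB, anthranilate synthase subunits; PAT, anthranilate phosphoribosyltransferase; IGPS, indole-3-glycerol phosphate synthase; TSA and TSB, tryptophan synthase subunits; ICS, isochorismate synthase; ADCS, aminodeoxychorismate synthase. The red line of CM2 climbs from 104 to 348 FPKM and crosses the blue lines of TSB, which goes from 369 to 65.2 FPKM, and ASB, which goes from 212 to 55.4 FPKM.

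Ratios within a library do not depend on how the libraries were scaled to each other. The FPKM ratio of anthranilate synthase beta to alpha was 3.10, 2.93 and 3.30 at 3% sucrose, against 0.772, 0.850 and 0.856 at 8% sucrose. The ratio of tryptophan synthase beta to alpha was 0.925, 0.922 and 0.948 at 3% sucrose, against 0.362, 0.333 and 0.379 at 8% sucrose. Taking alpha clusters of at least 500 bp, it was 2.04 ± 0.0236 and 0.588 ± 0.0186 (means ± SD, n = 3), so the ratio was lower at 8% sucrose with and without the 2 short clusters, while its level differed. The ratio of chorismate mutase 2 to chorismate mutase 1 was 2.80, 2.86 and 2.88 at 3% sucrose, against 18.7, 18.5 and 18.5 at 8% sucrose. These ratios were chosen after the levels were known and carry no test.

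**Figure D5:**
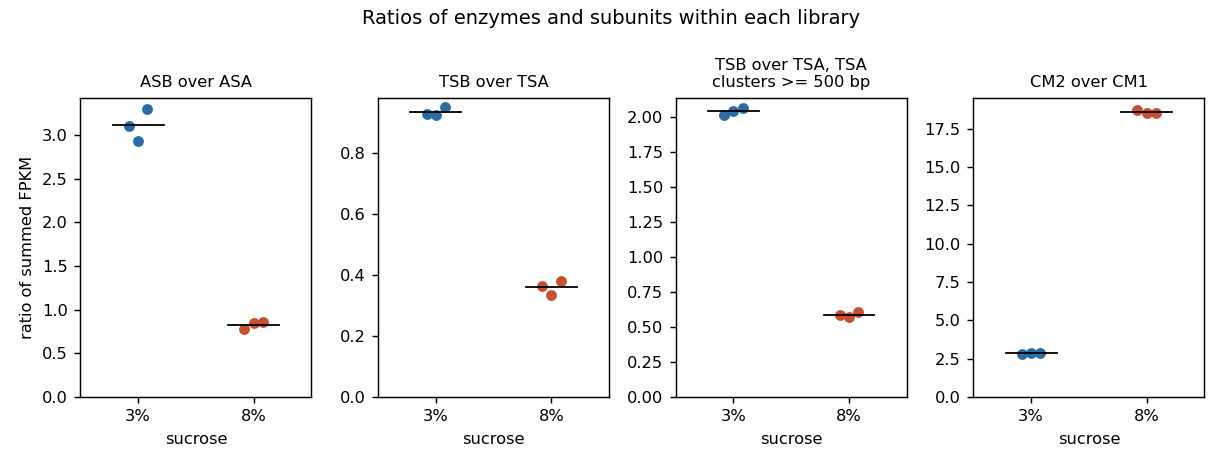
Ratio of summed FPKM within each library (1 point per library, black line for the mean of 3, axes from 0) for anthranilate synthase beta over alpha, tryptophan synthase beta over alpha with all alpha clusters and with alpha clusters of at least 500 bp, and chorismate mutase 2 over 1. The subunit ratios are lower in every library at 8% sucrose, and the chorismate mutase ratio is higher, at 18.5 to 18.7 against 2.80 to 2.88.

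Neighbouring steps, taken from lists of Swiss-Prot descriptions, give the surroundings of the pathway, and their counts are to be read against the 29.1% of all tested clusters that rose and the 25.6% that fell. On the supply side, transketolase and transaldolase, which handle erythrose 4-phosphate, had 1 of 11 tested clusters rise and 2 fall, and summed to 404 ± 16.3 CPM on the 3% medium and 225 ± 7.82 CPM on the 8% medium (means ± SD, n = 3). Enolase and the phosphoenolpyruvate translocators had 8 of 45 tested clusters rise and 15 fall, and summed to 3820 ± 86.5 CPM and 1462 ± 51.0 CPM (means ± SD, n = 3). Within that list the hit of phosphoenolpyruvate/phosphate translocator 1 (Q69VR7), which carries phosphoenolpyruvate into plastids, fell by 2.09 ± 0.06 (SE), from 208 ± 5.04 CPM to 48.9 ± 3.06 CPM (means ± SD, n = 3), with an edgeR adjusted p of 8.24e-08. Phosphoribosylanthranilate isomerase, the tryptophan enzyme that the choice of names left out, had 0 of 5 tested clusters rise and 2 fall. Its hit (Q42440) fell by 0.99 ± 0.08 (SE) with an edgeR adjusted p of 2.42e-05.

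Among users of the products, arogenate dehydrogenase and tyrosine aminotransferase, on the tyrosine side, had 3 of 11 tested clusters rise and 4 fall. The arogenate dehydrogenase 2 hit (Q9LMR3) stood at 11.6 ± 1.26 CPM and 10.3 ± 0.296 CPM (means ± SD, n = 3) and did not pass the test, with an edgeR adjusted p of 0.216. The tyrosine aminotransferase hit (Q9LVY1) fell by 0.82 ± 0.13 (SE) with an edgeR adjusted p of 0.000884. Phenylalanine ammonia-lyase, which takes phenylalanine into phenylpropanoids, had 3 of 6 tested clusters rise and 0 fall, and summed to 150.3, 168 and 147 CPM at 3% sucrose and to 655, 613 and 517 CPM at 8% sucrose. At 8% sucrose it was highest in replicate 1 and lowest in replicate 3. Chorismate mutase 2, chorismate mutase 1 and arogenate dehydratase had the same order, so it is not particular to phenylalanine ammonia-lyase.

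The list of shikimate-ester enzymes of lignin synthesis rests on names, and 52 of its 55 clusters share the same caffeoylshikimate esterase hit. Whether all of these encode that esterase was not tested. The list had 15 of 41 tested clusters rise and 5 fall. That esterase hit (Q9C942) rose by 0.69 ± 0.07 (SE) with an edgeR adjusted p of 0.000103. The list of enzymes that use tryptophan or act further along auxin synthesis had 5 of 21 tested clusters rise and 4 fall. Its sum was 479.5 ± 41.9 CPM on the 3% medium and 178 ± 11.1 CPM on the 8% medium (means ± SD, n = 3). Most of this sum lay on the hit of YUCCA10 (Q9FVQ0), at 375 ± 40.1 CPM and 101 ± 8.88 CPM (means ± SD, n = 3). It is named a probable indole-3-pyruvate monooxygenase of auxin synthesis, so its named substrate is not tryptophan itself. This hit fell by 1.90 ± 0.10 (SE) with an edgeR adjusted p of 1.38e-06. The main cytosolic tryptophan--tRNA ligase hit (Q9SR15), which charges tRNA for protein synthesis, fell by 0.63 ± 0.06 (SE) with an edgeR adjusted p of 3.71e-05. Less abundant ligase hits rose, another cytosolic hit (Q55DZ8) by 0.23 ± 0.08 (SE) with an edgeR adjusted p of 0.0389 and the organellar hit (Q8RXE9) by 0.47 ± 0.11 (SE) with an edgeR adjusted p of 0.00744.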

How the data were processed

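RNA was sequenced in 3 libraries per medium. FastQC, Trimmomatic 0.36, Bowtie2 and RSEM were used by the authors, per the submitters' processing notes. The series title names a de novo assembly. For the assembler, the clustering and the test of the authors, a name is not given in the sources used here. The NEBNext Ultra kit named in the labels' protocols does not mark strand, so antisense reads cannot be told apart. The authors deposited a count per cluster and library, per the file headers, here taken as an expected count because 45.4% of values are not whole. They also deposited FPKM, used here for levels between enzymes. Their deposited log2 ratio and q-value served only to count the authors' own calls. Cluster length, hit E-values and hit scores are other values the authors deposited, per the file headers.

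Expected counts were rounded, filtered with filterByExpr (85038 clusters with 99.29% of the counts kept), scaled with TMM (factors 0.935 to 1.07) and tested with edgeR 4.0.16 in R 4.3.3, quasi-likelihood, no covariate, Benjamini-Hochberg adjustment over the whole table. The common biological coefficient of variation was 41.4%. For hits, counts of all clusters of a Swiss-Prot hit were summed over the whole table and tested the same way, adjusted over 44765 hits and clusters without a hit, and hit levels differ slightly from cluster sums because scaling factors were refitted. Replicates differed beyond sampling noise (chi-square per cluster 8.05 to 15.2). A count of 3 is 0.0776 to 0.0883 CPM, and bounds cover counting error only. Clusters without counts in a medium could pass the filter only through the other medium. Alternatives were DESeq2 size factors, no filter, DESeq2 1.42.0, a replicate block, each library left out and counts summed by hit.

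The members and lists were chosen with earlier results of these data known. Named clusters are, per enzyme step, the most abundant and those that rose and fell with the smallest p, plus the 5 largest rises and falls with at least 50 counts per library and no overlap. Named hits have at least 100 counts per library. Q75LR2, Q42565, Cluster-2051.81024, Cluster-2051.97160, Cluster-2051.86568, Cluster-2051.54169 and the hits of the neighbouring lists were chosen after their values were seen. No cluster sequence was used. Figures were drawn with matplotlib 3.10.9.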

Additional observations from a re-analysis of the deposited data

How the results depend on the processing

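Members that rose numbered 45 with DESeq2 size factors, 45 without a filter, 47 with DESeq2 and 39 to 44 with a library left out, and members that fell numbered 47, 46, 48 and 41 to 46. Summed by hit, 10 rose and 23 fell of 41. Hits that rose numbered 9 to 11 and hits that fell 21 to 24 under the other settings. With the replicate block 39 members rose and 44 fell, and 9 hits rose and 23 fell. Libraries with the same number did not deviate together (r 0.031, 0.004 and 0.013), and not every library correlated best with its own number.

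Named clusters kept direction and call in 215 of 222 fits with a library left out and in 147 of 148 other fits. The exceptions, Cluster-2051.74776 and Cluster-2051.74781, lost their calls. Summing by hit reversed 6 named clusters, since other clusters of the hit outweigh them: Cluster-2051.54986 (-1.61), Cluster-2051.98445 (-0.16), Cluster-2051.74781 (-0.23), Cluster-2051.83178 (-0.72), Cluster-2051.80461 (-0.81) and Cluster-2051.42473 (-0.54). Cluster-2051.77417 lost its call this way (0.83).

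Of the named hits, DAHP synthase 1 (P21357), not called in any fit, changed sign with DESeq2 size factors (-0.0047), DESeq2 (-0.0047) and, with a library left out, ranged from -0.064 (replicate 1 at 8% sucrose) to 0.16, with -0.032 when replicate 3 at 3% sucrose was the one removed. The cause was not tested. Arogenate dehydratase 1 (Q9SA96) was called with DESeq2 size factors (-0.20, adjusted p = 0.0432) and without replicate 1 at 8% sucrose (edgeR adjusted p = 0.0433). Depth limits the low clusters, and 55 members had too few counts to test.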
